A study of Mus musculus with 3 samples.

Results

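The histone genes described here are the 74 of 32285 features whose symbols begin with Hist1h, Hist2h, Hist3h or Hist4h, together with H1f0 and the replacement variants H2afz, H2afx, H2afy, H2afj, H3f3a and H3f3b. By symbol, 7 are linker histones, 61 are core Hist genes (18 H2A, 18 H2B, 12 H3 and 13 H4) and 6 are replacement variants. They were measured in single cells from dissociated mouse hypothalamus, captured with a 10x Genomics 3′ kit. All mice were 8-week-old males, and each of the 3 groups gave 1 library. PF mice were the control, fed to match the intake of mice under heat. HS mice had been exposed to heat, and QS mice had been exposed and then allowed to recover. The labels state no strain, temperature, recovery time or number of mice per library, and a further RT condition is not analysed here. With 1 library a group there is no replicate error, no test and no p-value, and every interval below covers counting error only.

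Histones are the proteins around which DNA is wound: H2A, H2B, H3 and H4 form the nucleosome core, and the linker histone H1 binds where DNA enters and leaves it. Most core and linker genes are copied into RNA in S phase, and their messages normally end in a conserved stem-loop, bound by the stem-loop binding protein, in place of a poly(A) tail. Most replacement variants and H1f0 are expressed outside S phase from polyadenylated messages, while H2afx also carries the stem-loop. The capture in this assay primes on poly(A), so it counts Hist and H2afx messages that carry a tail. It is not a measure of all histone RNA.

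After filtering, PF had 11858 cells, HS 11630 and QS 10782, and their medians were 6143, 6298 and 6162 UMIs (unique molecular identifiers, which count captured transcripts). Pairs of libraries shared between 37 and 51 cell barcodes. A marker gate placed 31984 of 34270 cells in a class, with 1455 cells just inside its margin and 690 just outside. In 7 classes each library had 200 cells or more: endothelial cells, pericytes, vascular smooth muscle cells, microglia, astrocytes, ependymal cells and oligodendrocytes. Each class had all of its defining markers detected except vascular smooth muscle, with 6 of 7. Levels are CPM, UMIs of a gene per 1000000 UMIs summed over a class in a library. Since 3′ counting takes 1 UMI per transcript, CPM needs no length correction. Between histone genes it still depends on how many messages carry a tail, on the annotated ends and on shared sequence. Orders between genes are therefore of counted RNA alone.

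The stem-loop that marks the usual end of these messages was found within 150 bases after the stop codon in 46 of 67 Hist genes (68.7%), against 108 of 20924 other protein-coding genes (0.516%). The pattern searched was GGNNNN, a loop of 4 bases and the exact reverse complement of the opening 6, on the sense strand of GENCODE M21 transcripts (GRCm38). In 15 of the 67 Hist genes no 3′ UTR of 16 bases was annotated, so the hairpin could not be found there. A match describes the sequence and is not evidence of use. The hairpins of 7 genes that the results turn on are shown in 5′ to 3′ direction, with the stem bases in capitals and with 5 bases before and 3 after.
Hist1h1c, hairpin at chr13:23739512-23739527, plus strand: caaaaGGCTCTtttcAGAGCCacc
Hist1h2ap, hairpin at chr13:21833029-21833044, minus strand: aaaaaGGCTCTtttcAGAGCCatc
Hist1h4h, hairpin at chr13:23531458-23531473, plus strand: ccaaaGGCCCTtttcAGGGCCgcc
Hist1h4i, hairpin at chr13:22040966-22040981, minus strand: ttaaaGGCCCTttttAGGGCCacc
Hist3h2ba, hairpin at chr11:58949349-58949364, plus strand: ccaaaGGCTCTtttcAGAGCCacc
Hist3h2a, hairpin at chr11:58955172-58955187, plus strand: ccaaaGGCTCTtttcAGAGCCacc
H2afx, hairpin at chr9:44335240-44335255, plus strand: acaaaGGCCCTtttaAGGGCCacc

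The hairpins of Hist3h2ba and Hist3h2a were identical over the printed stretch, which Hist1h2be, Hist1h1e and Hist1h3d, among others, also carried. Those of the H4 genes Hist1h4h and Hist1h4i had the other stem, which H2afx also carried. H2afx, the H2A variant phosphorylated around DNA breaks, had both the hairpin and a downstream poly(A) signal, with 822 annotated bases past the hairpin.

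Hist genes with annotated sequence running past the hairpin held most of the Hist UMIs. The 23 genes with a hairpin and at least 100 annotated bases past it had a median of 996 UMIs over the 3 libraries and held 54.1% of the 135209 Hist UMIs. The 23 genes whose annotation ended within 100 bases of the hairpin had a median of 84 UMIs and held 9.68%, and the 15 genes with no annotated 3′ UTR had a median of 57 and held 1.05%. A further 6 genes had a 3′ UTR without the hairpin, and through the H2B gene Hist1h2bc alone, with 45748 UMIs, this set reached 35.2%. The annotation the authors counted on may have had other ends, and UMIs past an annotated end may not be counted. The part of this in the values was not tested.

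**Figure D1:**
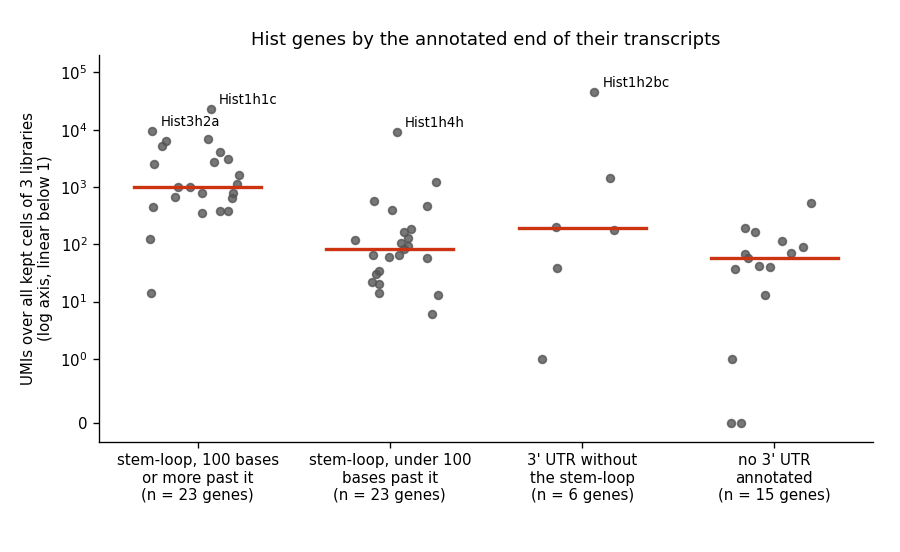
Total UMIs of each of 67 Hist genes over all kept cells (y axis, log scale that is linear below 1), by the annotated end of the longest transcript model; each point is a gene and each red line a group median. Genes with 100 or more bases past the hairpin have a median of 996 UMIs against 84 for those ending sooner, and Hist1h4h with 9191 UMIs is the highest of the latter.

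Hist RNA was spread very unevenly over the family. The 5 most abundant Hist genes held 70.1% of the Hist UMIs and 27 of the 67 genes had under 100 UMIs. Most of the family, 54 of 67 Hist genes, lies on chromosome 13, with Hist1h2bc at chr13:23684199-23692908 and Hist1h1c at chr13:23738808-23740367. H1f0 lies alone at chr15:79028450-79030504 and H2afj at chr6:136808244-136810074, beside Hist4h4. The H2A gene Hist1h2ah and the H2B gene Hist1h2ba had no UMI in any library. Assignment within the family is uncertain for some members: 53 of 74 genes shared at least a 50-base stretch of their last 500 bases with another gene and 38 shared at least 50% of them. Hist1h2ap shared 93.1% of its stretches with other copies. Hist1h1e and Hist1h2be overlap on the same strand, so their counts cannot be told apart with certainty.

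Orders of level in the following are among the 7 large classes alone. Core Hist RNA was highest there in ependymal cells, the ciliated cells lining the ventricle, and next highest in oligodendrocytes, the myelin-forming cells. The summed core genes reached 935, 1031 and 984 CPM in ependymal cells of PF, HS and QS and 528, 544 and 648 CPM in oligodendrocytes. They were lowest in vascular smooth muscle, at 121, 131 and 149 CPM. The 3 libraries of each of these classes lay apart from those of the other classes named.

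Linker histones followed a similar order only in part. Their sum was 270, 253 and 303 CPM in ependymal cells, and 82.1, 98.3 and 83.1 CPM in microglia. Replacement variants were ordered otherwise: microglia had 4494, 4567 and 4754 CPM and astrocytes 932, 809 and 776 CPM. Astrocytes were thus the lowest of the 7 classes for replacement variants in every library, with no overlap with the other 6. Oligodendrocyte precursors, a small class, overlapped them at 739, 1562 and 1360 CPM on 22, 208 and 75 UMIs.

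**Figure D2:**
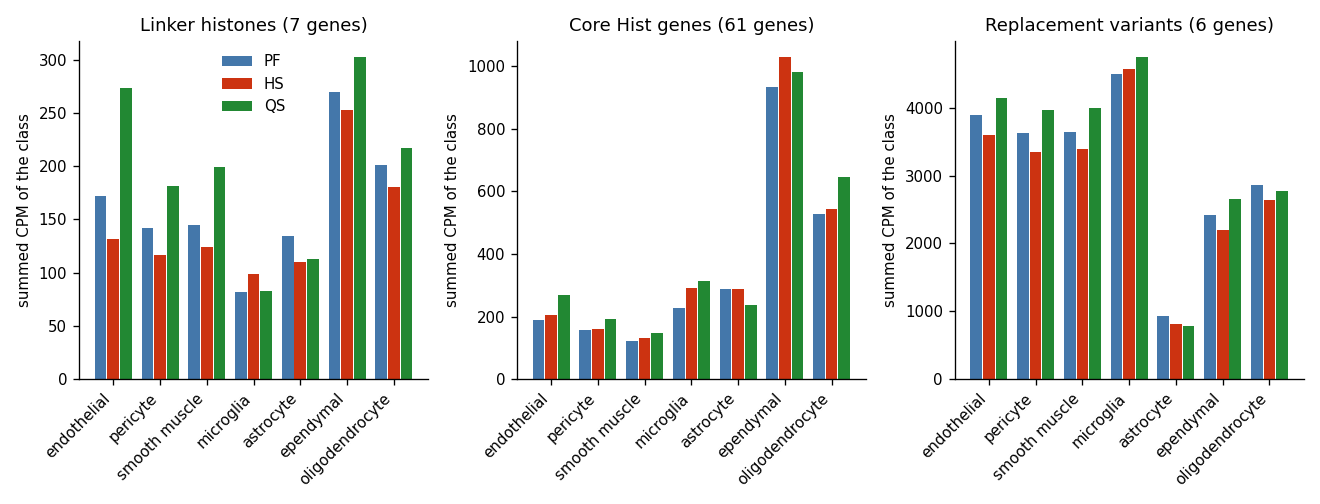
Summed CPM (y axis, from 0) of linker histones, core Hist genes and replacement variants in 7 cell classes (x axis), with a bar for each library. Core sums stand highest in ependymal cells at 935 to 1031 CPM, and replacement sums lowest in astrocytes at 776 to 932 CPM.

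A gene was called higher in a class where it reached 1.5 times the median of the other 6 classes in all 3 libraries with at least 30 UMIs in each, and lower by the mirrored rule. Of 152 gene and class pairs measured, 41 were called higher (27.0%) and 33 lower (21.7%). Over all genes the same rule called 27.2% higher and 21.4% lower, so the shares among histone genes were near those of all genes. The calls were spread unevenly over the classes. Ependymal cells had 16 of 27 members called higher against 35.7% of all genes there, and 1 lower against 15%. Of the 16, 13 were core genes. Oligodendrocytes had 9 of 21 higher against 25.7%, and 3 lower against 22.3%. Microglia had 11 of 29 higher against 26.2%, and 8 lower against 35.6%.

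The remaining classes had few members called higher. Endothelial cells had 0 of 30 higher against 21.9%, and 9 lower against 21%. Astrocytes had 3 of 19 higher against 37.2%, and 5 lower against 20.3%, and 4 of these 5 were replacement variants. Pericytes had 1 of 11 higher against 21.8%, and 3 lower against 8.42%. Vascular smooth muscle had 1 of 15 higher against 18.6%, and 4 lower against 22.6%.

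Among the linker histones, H1f0 encodes H1.0, the linker variant that accumulates in cells that have stopped dividing. By median CPM its order was pericytes, endothelial cells, oligodendrocytes, ependymal cells and vascular smooth muscle, each overlapping the next. H1f0 stood at 91.9, 80.7 and 98.1 CPM in oligodendrocytes and at 22.3, 20.4 and 21.8 CPM in microglia of PF, HS and QS. It was called lower in microglia and in astrocytes, where it was 41.5, 35.6 and 40.7 CPM. Hist1h1c, the most abundant S-phase linker gene here with 23420 UMIs, was 171, 169 and 205 CPM in ependymal cells and was called higher there. Its lowest class was pericytes, at 29.1, 31.4 and 34.6 CPM.

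Of the replacement variants, H3f3a and H3f3b encode the same protein, the H3 variant placed on DNA outside replication, yet their RNAs differed in class pattern. H3f3b was 3173, 3288 and 3500 CPM in microglia and 354, 304 and 323 CPM in astrocytes. It was called higher in microglia and pericytes and lower in astrocytes, ependymal cells and oligodendrocytes. H3f3a was highest in endothelial cells, at 1245, 1083 and 1264 CPM, a range that overlapped vascular smooth muscle at 1219, 1119 and 1190 CPM. It was called lower only in astrocytes among the 7 classes, at 313, 272 and 240 CPM.

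H2afz encodes the H2A variant found at promoters, and it stood at 413, 412 and 396 CPM in microglia and at 97.6, 79.8 and 67.4 CPM in astrocytes. H2afx was 55.9, 52.4 and 58.7 CPM in endothelial cells and 18.3, 15.4 and 14.5 CPM in astrocytes. H2afy, which encodes macroH2A, was called higher in ependymal cells, at 211, 214 and 211 CPM. It was the 1 replacement variant of 6 called higher in that class.

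H2afj, an H2A variant gene, was the replacement variant with the steepest class difference. It reached 593, 536 and 608 CPM in oligodendrocytes and lay between 35.0 and 86.5 CPM in every other class and library. This was 9.51, 9.56 and 10.9 times the median of the other classes. Within oligodendrocytes it was higher in the larger cluster (646, 595 and 616 CPM) than in the smaller (357, 321 and 334 CPM), in all 3 libraries.

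Hist3h2ba, an H2B gene on chromosome 11, was also far higher in oligodendrocytes. It was 98.5, 85.8 and 117 CPM there, 20, 15.7 and 15.3 CPM in ependymal cells and at most 7.55 CPM in the other 5 classes. The neighbouring H2A gene Hist3h2a, with an identical hairpin, had a flatter pattern: its highest class was ependymal cells at 56.7, 68.4 and 64.4 CPM and its lowest microglia at 11, 17.4 and 14.0 CPM. Hist4h4, an H4 gene next to H2afj on chromosome 6, was highest in oligodendrocytes as well, at 23.7, 27.2 and 28.4 CPM.

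Ependymal cells stood out for some H4 genes. Hist1h4h, Hist1h4i, Hist1h4j and Hist1h4a were called higher in them, while Hist4h4, Hist2h4 and Hist1h4d were called neither way there. Hist1h4h was 180, 222 and 152 CPM there, 31.9, 36.9 and 27.3 times the median of the other classes, and 22.6, 25.8 and 18.6 CPM in oligodendrocytes. Hist1h4i was 98.3, 111 and 109 CPM in ependymal cells and at most 15.9 CPM in any other class. The share of ependymal cells with a UMI of Hist1h4h was 68.7%, 75.8% and 64.5%, and 29.1%, 34.3% and 24.6% after each cell was thinned to 2000 UMIs. In microglia the thinned share was 1.14%, 0.834% and 0.678%. The ependymal marker Ccdc153, which microglia should lack, stood there at 0.773%, 0.747% and 0.605% of its ependymal CPM. The part of free RNA in the microglial share was not tested.

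Core H2B RNA was mostly Hist1h2bc, the most abundant Hist gene. It was 372, 384 and 432 CPM in ependymal cells and 239, 257 and 299 CPM in oligodendrocytes, and was called higher in both. In pericytes it was 53.3, 55.4 and 69.2 CPM and in vascular smooth muscle 50.6, 55.2 and 65.5 CPM. Those mural cell classes overlapped each other and were called lower. By median, Hist1h2be and the H2A gene Hist1h2ac also had ependymal cells highest, oligodendrocytes next and vascular smooth muscle lowest, but the classes between were ordered otherwise. They stood at 73.5, 79.3 and 71.4 CPM and at 31.2, 32.3 and 33.2 CPM in ependymal cells. In vascular smooth muscle Hist1h2be was 6.13, 6.87 and 5.19 CPM and Hist1h2ac was 1.19, 0.916 and 0.648 CPM.

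**Figure D3:**
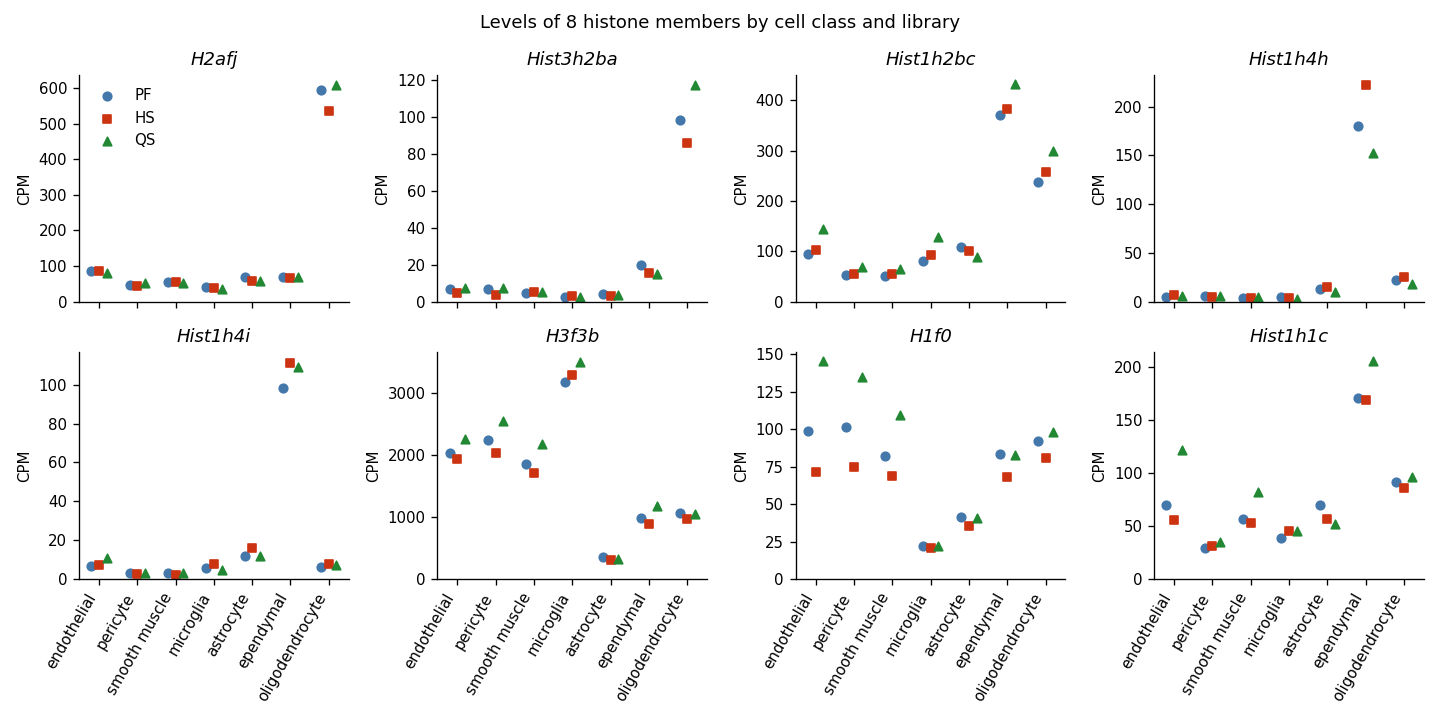
CPM (y axis, from 0) of 8 histone genes in 7 cell classes (x axis), with a point for each library. H2afj and Hist3h2ba stand high in oligodendrocytes, Hist1h4h and Hist1h4i in ependymal cells and H3f3b in microglia, while H1f0 in the 3 vascular classes is lowest in HS and highest in QS.

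Tanycytes, ventricular cells related to ependymal cells, numbered 91, 258 and 125, below the size limit in 2 libraries. Their core sum was 707, 732 and 856 CPM, above that of oligodendrocytes in each library, with Hist1h2bc at 326, 390 and 484 CPM. Border-associated macrophages, with 281, 189 and 126 cells, had a core sum of 449, 556 and 792 CPM and a replacement sum of 8734, 9510 and 10978 CPM. No comparison between libraries was made for classes of this size.

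The libraries were next compared within each class, to ask how the heat-exposed and recovery states differed from the intake-matched control and from each other. The call needed a CPM ratio of 1.5 or more in either direction, an exact 95% interval that did not span 1, and 30 UMIs or more in the higher library. The 3 comparisons share libraries and are not independent. HS against PF gave 12 higher and 2 lower of 155 gene and class pairs (9.03%), against 3.91% of all genes, 2.02% higher and 1.9% lower. QS against PF gave 15 higher and 6 lower of 153 pairs (13.7%), against 5.16%, 1.68% higher and 3.48% lower. QS against HS gave 14 higher and 12 lower of 161 pairs (16.1%), against 6.03%, 2.22% higher and 3.81% lower. None of the 42 pairs of replacement variants was called in any of the 3 comparisons, and 25 histone genes had at least 1 call.

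By count, microglia had the most calls in every comparison. Endothelial cells came next in QS against PF and in QS against HS, but not in HS against PF, where vascular smooth muscle had as many. The number of members measured differed between classes. In HS against PF, 7 of 29 members measured in microglia were called (3.44% of all genes there) and 2 of 27 in endothelial cells (4.42%). Vascular smooth muscle had 2 of 13 (3.75%), astrocytes 1 of 22 (4.41%), ependymal cells 1 of 32 (3.05%), oligodendrocytes 1 of 22 (4.11%) and pericytes 0 of 10 (4.45%). In QS against PF, 7 of 27 were called in endothelial cells (5.43%), 8 of 32 in microglia (6.32%) and 3 of 19 in astrocytes (4.6%). Oligodendrocytes had 2 of 24 (5.81%), ependymal cells 1 of 28 (4.27%), pericytes 0 of 11 (4.83%) and vascular smooth muscle 0 of 12 (4.64%). In QS against HS, 8 of 29 were called in endothelial cells (6.83%), 9 of 31 in microglia (6.75%), 2 of 11 in pericytes (6.06%) and 2 of 13 in vascular smooth muscle (5.52%). Oligodendrocytes had 3 of 24 (5.98%), astrocytes 1 of 21 (5.49%) and ependymal cells 1 of 32 (5.4%).

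In endothelial cells, linker histone RNA was lower in HS and higher in QS than in PF. The linker sum was 172, 132 and 273 CPM in PF, HS and QS. Of its genes, H1f0 stood at 98.8, 71.2 and 145 CPM. The QS to HS ratio was 2.04 (1.94 to 2.15), and the HS to PF ratio of 0.721 did not reach the size needed for a call. Hist1h1c was 69.4, 55.4 and 121 CPM in the same order, 2.19 (2.06 to 2.32) times higher in QS than in HS and 1.75 (1.66 to 1.85) times higher than in PF. Both genes thus had QS as the highest and HS as the lowest library.

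The other vascular classes had the same order for H1f0. It was 101, 75.1 and 135 CPM in pericytes, a QS to HS ratio of 1.79 (1.43 to 2.26), and 82.1, 68.5 and 110 CPM in vascular smooth muscle, a ratio of 1.60 (1.37 to 1.88). Over the 7 classes H1f0 was below PF in HS in all 7, with the interval below 1 in 5, and above HS in QS in all 7, with the interval above 1 in 5. The QS to HS ratio ran from 1.07 in microglia to 2.04 in endothelial cells. Hist1h1c was 57.0, 52.4 and 82.3 CPM in vascular smooth muscle and was called higher in QS than in HS, at 1.57 (1.31 to 1.89), while in astrocytes it was 69.4, 56.6 and 52.3 CPM.

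The endothelial difference between QS and HS was present in each of the 4 clusters with at least 100 endothelial cells in every library. In those clusters the QS to HS ratio of H1f0 was 2.02, 1.99, 1.82 and 2.13, and that of Hist1h1c was 2.24, 2.02, 1.56 and 2.75. The HS to PF ratio of H1f0 was 0.741, 0.729, 0.683 and 0.732. That of Hist1h1c was 0.717, 0.83, 1.125 and 0.776, so the third cluster had HS above PF for this gene. The share of endothelial cells with an H1f0 UMI, after thinning to 2000 UMIs, was 16.2%, 12.4% and 22.2% in the same order, and without thinning 39.0%, 33.9% and 46.7%. Thinning left out 671, 522 and 474 endothelial cells. In microglia, the class lowest in H1f0, the thinned share was 4.15%, 3.33% and 4.03%. Among marker lists of other cells in the endothelial class, all 5 erythroid markers were detected and summed to 1338, 1295 and 3850 CPM. In pericytes they summed to 56.0, 41.2 and 394 CPM and in vascular smooth muscle to 27.7, 22.9 and 307 CPM, so these too were highest in QS. With haemoglobin, mitochondrial and ribosomal protein genes taken out of the denominator the QS to HS ratio in endothelial cells was 2.04 for H1f0 and 2.19 for Hist1h1c. That setting changes the totals alone and takes no UMI of these genes away. The part of erythroid RNA in the linker values was not tested.

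Core Hist genes were also higher in QS endothelial cells. Their sum was 189, 206 and 268 CPM, 1.42 (1.37 to 1.47) times higher in QS than in PF. Hist1h2bc was 94.7, 102 and 144 CPM, a QS to PF ratio of 1.52 (1.45 to 1.60) that fell to 1.49 without doublet removal and so lay at the edge of the rule. The 5 core genes called higher in QS than PF here were Hist1h2bc, Hist1h2ac, Hist1h4i, Hist1h3d and Hist1h4a. The median log2 ratio over the 18 core genes measured was 0.44, against 0.01 over all genes of the class.

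**Figure D4:**
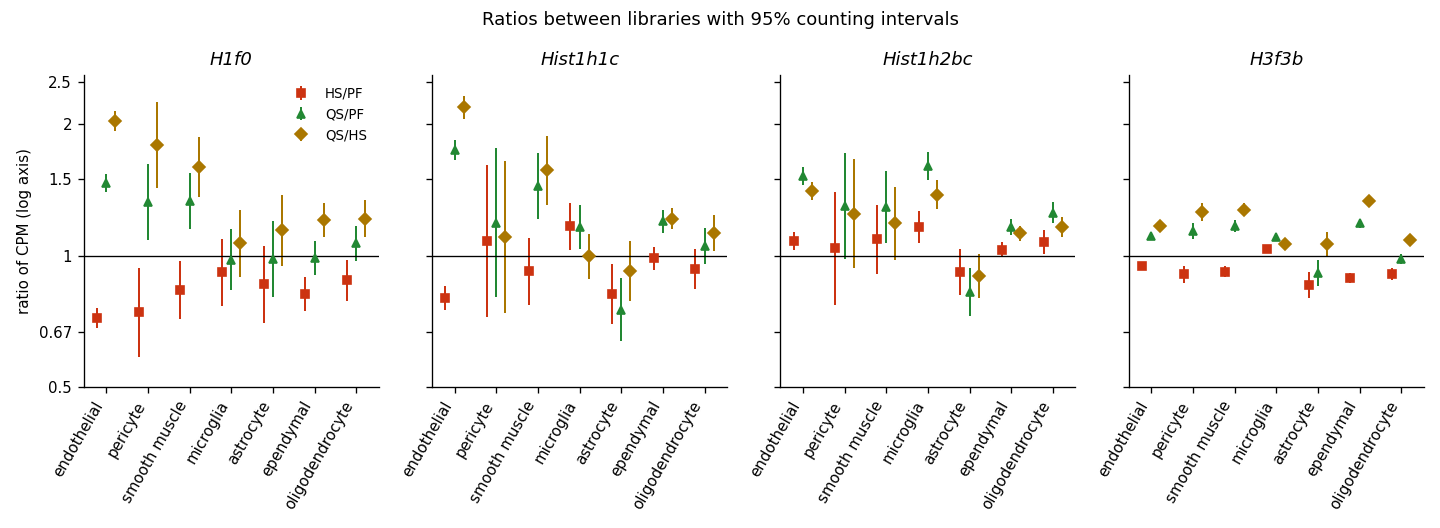
Ratio of CPM between libraries (y axis, log scale) in 7 cell classes (x axis) for 4 histone genes, with exact 95% counting intervals. For H1f0 the QS to HS ratio is 2.04 in endothelial cells, 1.79 in pericytes and 1.60 in vascular smooth muscle, while for H3f3b every ratio stays within the 1.5 limit.

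Microglia had the most calls in HS against PF, all 7 of them higher, and both directions in recovery. The H2A gene Hist1h2ap, a gene of dividing cells, stood at 9.46, 17.2 and 3.14 CPM in PF, HS and QS. It was 1.82 (1.45 to 2.29) times higher in HS than in PF and its QS to HS ratio was 0.183 (0.128 to 0.255). The linker gene Hist1h1b was 3.73, 6.29 and 0.286 CPM, with 52, 68 and 4 UMIs. These genes were lowest in QS by a wide margin.

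Dividing microglia were also fewest in QS, with like shares in PF and HS. Cells with at least 8 of 22 S and G2/M genes, none of them histones, were 36 of the PF microglia (2.03%), 29 of the HS microglia (2.05%) and 7 of the QS microglia (0.403%). With dividing cells left out, the QS to HS ratio of Hist1h2ap in microglia was 0.426, and its QS to PF ratio of 0.830 was no longer called. The HS to PF and QS to HS ratios of Hist1h1b then became 0.215 and 1.5, on very few UMIs and with counting intervals that spanned 1. With those cells out, QS against HS fell from 12 to 5 lower calls over all classes, and from 14 it went to 15 higher calls.

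Other core genes were higher in QS microglia. Hist1h2ac was 8.96, 8.97 and 20.5 CPM, a QS to PF ratio of 2.29 (1.85 to 2.84). Hist1h2bc was 80.4, 93.5 and 129 CPM, a ratio of 1.61 (1.49 to 1.73). The H3 gene Hist1h3d was 9.75, 15.8 and 19.1 CPM, 1.96 (1.58 to 2.42) times higher in QS than PF. All of these kept their call in the 9 alternatives, including the one without dividing cells. QS to PF ratios within the 2 large microglial clusters were 1.99 and 2.73 for Hist1h2ac and 1.42 and 1.83 for Hist1h2bc.

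Hist1h3d was called higher in QS than in PF in 4 classes. Beside microglia these were endothelial cells (0.606, 0.743 and 1.51 CPM), ependymal cells (3.45, 5.14 and 7.61 CPM) and oligodendrocytes (5.12, 7.16 and 8.78 CPM). In each, PF was the lowest and QS the highest library. The endothelial call rested on 20 UMIs in PF and 38 in QS.

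Most of the largest and smallest called ratios came from members with few UMIs, Hist1h1c in endothelial cells (1789 UMIs in HS and 3062 in QS) being an exception. For HS against PF the highest were the H2A gene Hist2h2aa1 in oligodendrocytes, 1.28 against 4.35 CPM in PF and HS (ratio 3.40, 1.64 to 7.72), and the H4 gene Hist1h4c in endothelial cells, 0.606 against 1.33 CPM (2.20, 1.27 to 3.94). The lowest were Hist4h4 in astrocytes, 7.47 against 4.29 CPM (0.575, 0.33 to 0.995), and the H2B gene Hist2h2be in vascular smooth muscle, 12.5 against 8.02 CPM (0.643, 0.413 to 0.987). For QS against PF, the H4 gene Hist1h4a in microglia was 0.717 CPM in PF and 2.71 CPM in QS, a ratio of 3.78 (1.85 to 8.51), and Hist1h3d in endothelial cells had a ratio of 2.48 (1.41 to 4.51). The lowest QS to PF ratios were in microglia, for Hist1h1b at 0.0766 (0.0201 to 0.208) and for Hist1h2ap at 0.332 (0.230 to 0.470). For QS against HS the lowest were the same genes, with Hist1h1b at 0.0454 (0.0120 to 0.122), and the highest were Hist1h2ac in microglia at 2.28 (1.81 to 2.91) and Hist1h1c in endothelial cells.

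Astrocytes had no member called higher in any comparison. Their core sum was 289, 288 and 239 CPM and their replacement sum 932, 809 and 776 CPM, each lowest in QS. Hist4h4, Hist2h4 and Hist1h4d, all H4 genes, were called lower in QS than PF, at ratios of 0.485, 0.516 and 0.648 on 21 to 64 UMIs a library. In ependymal cells Hist1h4h was 180, 222 and 152 CPM, highest in HS and lowest in QS, without reaching a call.

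Replacement variants reached no call. Over the 7 classes the HS to PF ratio of their sum ran from 0.868 in astrocytes to 1.02 in microglia and was below 1 in the other 6. The QS to HS ratio ran from 0.959 to 1.21. Single variants ranged more widely, from 0.691 for H2afz in astrocytes (QS against PF) to 1.43 for H2afx in vascular smooth muscle (QS against HS). H3f3a was below PF in HS in all 7 classes, at ratios of 0.870 to 0.934, with the interval below 1 in each. H3f3b was above HS in QS in all 7, at 1.07 to 1.34, with the interval above 1 in 6. These intervals hold no variation between animals.

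Over all classes, 68, 61 and 21 cells of PF, HS and QS passed the dividing gate, and 104, 113 and 79 more had 5 to 7 of its genes. Dividing cells had medians of 16280, 16260 and 15056 UMIs, against 6120, 6284 and 6156 in other cells. Their core histone sum was 999, 1110 and 1807 CPM against 337, 405 and 449 CPM in other cells, ratios of 2.97 (2.81 to 3.13), 2.74 and 4.03. In QS a single cell held 28.7% of these UMIs, and without it the ratio was 3.01. Within microglia the ratio was 4.07 in PF and 4.88 in HS, and 3.64 and 4.18 without the cell holding the most core UMIs. In the 7 dividing QS microglia it was 8.30, but 1 cell held 91.0% of the core UMIs and without it the ratio was 0.992.

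The difference between dividing and other cells depended on the histone and on the class. Over all classes, core H2A genes together had ratios of 10.2, 9.78 and 16.1 and core H3 genes 7.82, 7.45 and 5.73, while core H4 genes had 2.28, 1.76 and 2.04 and core H2B genes 1.18, 1.02 and 1.91. These ratios pool classes of different level. Within microglia core H2A had 12.9, 13.2 and 20.8, core H3 6.61, 5.82 and 7.26, core H4 3.26, 4.86 and 3.21 and core H2B 1.48, 1.85 and 6.77. The QS values rest largely on 1 cell, which held 97.1% of the Hist1h2bc UMIs of the 7 dividing microglia. In HS 1 cell held 58.3% of those of the 29 dividing microglia, and in PF 17.2% of those of 36. Within T or NK cells, with 8, 10 and 8 dividing cells, core H2A had 43.7, 67.7 and 65.2, core H4 11.9, 5.93 and 6.12 and core H2B 3.98, 4.09 and 5.40. H2A had the highest of these ratios in both classes. H4 and H2B had higher ratios within T or NK cells than over all classes. In PF T or NK cells, the H2A ratio rested on 9 UMIs in the other cells (22.4 to 97.5). That of H4 rested on 7 UMIs (5.14 to 32.2), and core H3 had 13.9 on 3 UMIs. PF border-associated macrophages, with 11 dividing cells, had 9.47 for H2A, 2.02 for H3, 2.23 for H4 and 1.01 for H2B. Each lay below its PF ratio over all classes.

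Single genes showed the difference more steeply. Hist1h2ap was 210, 308 and 329 CPM in dividing cells and 1.51, 2.13 and 0.909 CPM in other cells. Hist1h2ae, another H2A gene, was 120, 160 and 274 CPM against 2.14, 2.89 and 2.55 CPM. Dividing cells made up 1.51%, 1.33% and 0.459% of all UMIs but held 68.2%, 66.0% and 62.5% of those of Hist1h2ap and 79.3%, 86.3% and 63.7% of those of Hist1h1b.

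Hist1h2bc did not share that pattern. It was 114, 126 and 292 CPM in dividing cells and 143, 169 and 206 CPM in other cells, with 59.5% of the QS dividing UMIs in 1 cell. The 5 core genes with the most UMIs in dividing cells were Hist1h2ap, Hist1h2ae, Hist1h2bc, Hist1h4d and Hist1h4i. Hist1h4d had ratios of 4.80, 5.46 and 5.13 and Hist1h4i of 2.75, 1.49 and 1.98. Within microglia those of Hist1h4i were 6.30 in PF and 7.71 in HS, with 1 UMI in the dividing cells of QS.

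Replacement variants differed in the same cells too. H2afz had ratios of 4.30, 4.96 and 6.05 and H2afx of 5.59, 6.20 and 4.55 between dividing and other cells. Within microglia the ratios of H2afx were higher, at 15.5, 15.4 and 14.9. H3f3a had ratios of 1.08, 1.05 and 0.994, and H2afj of 0.705, 0.946 and 1.09. H1f0 had ratios of 0.794, 1.47 and 0.491 over all classes, with no common direction. Within microglia, the class lowest in H1f0, its ratios were 2.17 (1.37 to 3.30), 5.31 (3.62 to 7.59) and 2.19 (0.592 to 5.66), the last on 4 UMIs in dividing cells.

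**Figure D5:**
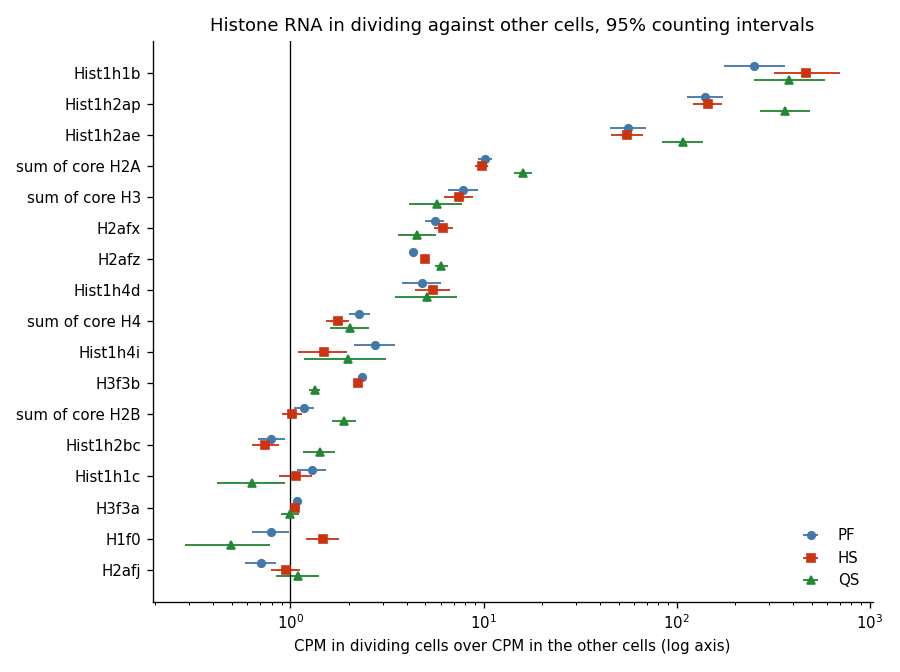
CPM in dividing cells over CPM in the other cells of a library (x axis, log scale) for histone genes and sums (y axis), with exact 95% counting intervals and a marker for each library. Hist1h1b, Hist1h2ap and Hist1h2ae lie farthest to the right, core H2A at 9.78 to 16.1, and H3f3a at 0.994 to 1.08.

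Genes that process, carry and place histones were compared in the same way. Of 14 histone mRNA processing genes measured, 0 of 87 gene and class pairs were called in HS or QS against PF and 1 in QS against HS, the exonuclease gene Eri1 in astrocytes at a ratio of 0.605. Slbp, the stem-loop binding protein gene, was 135, 128 and 124 CPM in endothelial cells and 246, 245 and 236 CPM in microglia. The 9 genes of the complexes that exchange H2A.Z had 0 calls in 63, 63 and 62 pairs. These shares were below those called over all genes.

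Among 18 histone chaperones 2 of 110, 3 of 111 and 4 of 110 pairs were called in HS against PF, QS against PF and QS against HS, 7 of these 9 in microglia. These shares too were below the 3.91%, 5.16% and 6.03% over all genes. Asf1b, which hands H3 and H4 to the replication machinery, was 5.16, 6.10 and 2.14 CPM there, with a QS to PF ratio of 0.415 (0.262 to 0.643). Chaf1b and Mcm2, which also act at replication, were 3.15, 1.94 and 1.43 CPM and 7.96, 5.27 and 3.43 CPM in microglia, highest in PF and lowest in QS. Mcm2 is among the genes of the dividing gate. Of the other histone variants 3 of 24, 2 of 23 and 3 of 23 pairs were called, all for 2 genes. Cenpa, the centromeric H3 variant, was 11.2, 13.9 and 3.93 CPM in microglia and H1fx, a linker variant, 2.01, 4.90 and 1.43 CPM. HS was the highest library for Asf1b, Cenpa and H1fx there, as for Hist1h2ap, but of the 3 only H1fx was called higher in HS than in PF. Mcm2 was called lower in HS than in PF (0.663, 0.473 to 0.920), the direction opposite to Hist1h2ap.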

How the data were processed

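The deposited values are whole UMI counts per gene and cell barcode. The authors used Cell Ranger and mm10, per the submitters' processing notes (version 5.0.0, with Seurat 3.1.2). The file headers name version 7.0.1. The labels do not state whether intronic reads were counted. The libraries held 12836, 12510 and 11720 barcodes (PF, HS, QS), with 100727912, 103891747 and 93295920 UMIs.

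A filter of 500 UMIs, 200 genes and a mitochondrial share of 20% took out 194, 208 and 211 barcodes. Scrublet (in Scanpy 1.11.5) removed 784, 672 and 727 doublets. A cell joined the class with the best marker score, with at least 3 markers detected and 1.5 times the second score. Counts were summed per class and library, which held between 1590089 and 33004911 UMIs. Ratios carry exact conditional binomial 95% intervals. The calling was tried on simulated counts that held counting error alone, which cannot show how it fares with variation between libraries or animals. Transcript ends and hairpins come from GENCODE M21.

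Named genes are H1f0, the replacement variants, Hist genes with at least 20 CPM in some class in all 3 libraries, the 2 highest and 2 lowest called ratios per comparison, and the 5 core genes with most UMIs in dividing cells. Other names were chosen after their values were seen. The members and lists were chosen with earlier results of these data known. Alternatives covered clusters for classes, doublets, cell filters, scaling, denominator, per-cell means, free RNA, dividing cells and the call limits.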

Additional observations from a re-analysis of the deposited data

Results flagged for a closer look

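A member called in opposite directions in different classes under the same comparison occurred 3 times. The difference between the classes was not tested, since each class had 1 library a group. In QS against HS, Hist1h1d had a ratio of 0.550 in microglia and 1.88 in oligodendrocytes, and Hist1h4i had 1.5 in endothelial cells and 0.606 in microglia. In QS against PF, Hist2h4 had a ratio of 0.516 in astrocytes and 1.64 in oligodendrocytes. Leaving out dividing cells ended the microglial calls of Hist1h1d (0.916) and Hist1h4i (0.748) and the endothelial call of Hist1h4i (1.49). The endothelial call of Hist1h4i lay at the edge of the rule, with ratios of 1.45 to 1.63, and held in 4 of 9 alternatives.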

How the results depend on the processing

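Counts of calls were within 1.5 times the main count under all alternatives but the looser limits. With a smaller ratio required the calls were 26 for HS against PF, 44 for QS against PF and 50 for QS against HS, and with 10 UMIs those for QS against PF were 32. The ratio of core histone RNA in dividing to other cells, a median of 2.97 over the libraries, was 1.72 with at least 5 S or G2/M genes and 3.66 with at least 4 G2/M genes alone. It was 4.88 within microglia and 3.52 with the other cells weighted to the same class mix, both chosen after seeing the data. Of 61 called pairs, 30 kept their call under all 9 alternatives, and the mean of per-cell CPM lost the most, 14. Of 549 values, 49 were past the threshold no longer, and 2 reversed, both for Hist1h1b in microglia without dividing cells: 0.215 for HS against PF and 1.5 for QS against HS. H1f0 in endothelial cells ran from 2.03 to 2.06 for QS against HS. Depth limits members under 30 UMIs in a class, and the 21 dividing cells of QS. No paired analysis was possible because each group had 1 library.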
